A study of Mus musculus with 2 samples.

Results

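Neutrophils of RM-1 prostate tumors were selected on measured UMI counts of marker genes, as the barcodes that carried the transcripts of mature granulocytes and lacked those of macrophages and T cells. A barcode stood for one droplet, and a unique molecular identifier (UMI) for one captured RNA molecule. Members had 500 to 8000 UMIs, at least 200 detected genes and at most 20% mitochondrial UMIs. They also had at least 20 UMIs summed over S100a8 and S100a9, at least 3 summed over Retnlg, G0s2 and Csf3r, 0 UMIs of C1qa, C1qb and C1qc, and at most 1 UMI of Cd3d, Cd3e and Cd3g. These limits were met by 1016 of 14085 barcodes that passed the limits on UMIs, genes and mitochondrial share.

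The data came from 2 single-cell libraries, one from a tumor of a vehicle-treated mouse (control) and one from a tumor of a mouse given enzalutamide (ENZ), an antiandrogen drug for prostate cancer. RM-1 is a mouse prostate cancer cell line, so all tumors derive from 1 injected line. Both samples are labelled wild type, the age of the mice is not given in the sources used here, and the study's methods describe its injection into the prostate of C57BL/6 mice and dosing of ENZ into the tail vein. Immune cells were enriched with an isolation kit and stained for CD45 during sorting, so the proportions of cell types in the libraries need not be those of the tumors. With 1 library and 1 mouse per condition there was no replicate, and no test between the conditions was possible. All intervals below are 95% intervals that cover counting error only, not the spread between mice.

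Neutrophils are short-lived granulocytes that mature in the bone marrow and enter blood and tissue in response to chemokines acting on CXCR2. They carry preformed granule proteins, make reactive oxygen through the NADPH oxidase, and in tumors can release interleukin 1, chemokines and suppressive factors. Granule protein transcripts are made early in the marrow and are largely lost before release, whereas cytokine transcripts are made in the tissue.

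The control library contributed 714 neutrophils of 8131 barcodes and the ENZ library 302 of 5954. Neutrophils made up 8.78% of barcodes in the control (exact Clopper-Pearson interval 8.17 to 9.42) and 5.07% in ENZ (4.53 to 5.66). The share was thus 3.71 percentage points smaller in ENZ (Newcombe interval of the difference -4.55 to -2.86), a ratio of 0.578. Over barcodes with a UMI of Ptprc, the gene of CD45, together with the neutrophils, the shares were 13.5% and 7.84%. The requirement of 0 C1q UMIs removed 241 control barcodes and 27 ENZ barcodes that met the other limits. Without that requirement the shares were 11.7% and 5.53%, with the same order of the libraries.

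Depth was similar in both libraries. The median was 2018 UMIs and 850 genes per neutrophil in the control, and 2126 UMIs and 902.5 genes in ENZ. These were small libraries beside those of macrophages, which had medians of 5636 and 5510 UMIs. The mitochondrial share of neutrophils had a median of 0.391% and 0.519%, against 2.65% and 2.41% in macrophages. Summed over members, 1570851 control UMIs and 696124 ENZ UMIs lay behind the levels given below, as UMIs of a gene per 1000000 UMIs (CPM). No neutrophil barcode occurred as a neutrophil in both libraries, and 8 of all passing barcodes were shared.

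The limits used measured values, so the levels of the marker genes describe the choice and are no finding. S100a8 and S100a9 together had 107 UMIs in the median control member and 99.5 in the median ENZ member, against 2.05 and 1.14 that RNA outside cells would give at the median depth. RNA outside cells was read from barcodes of 10 to 100 UMIs. S100a8 and S100a9 encode calprotectin, an abundant cytosolic calcium-binding dimer, and took 6.19% and 5.77% of all neutrophil UMIs. S100a9 stood at 43921 CPM in the control and 36975 CPM in ENZ, and S100a8 at 17979 and 20710 CPM. Retnlg, a resistin-like secreted protein of granulocytes, stood at 3568 and 5585 CPM, and G0s2, an inhibitor of lipolysis, at 3818 and 2629 CPM. Barcodes just inside the S100 limit, with 20 to 29 UMIs, numbered 48 and 34, and those just outside, with 10 to 19 UMIs, 68 and 35. Barcodes that met all other limits with fewer than 20 S100 UMIs numbered 238 and 114, and they had much less Retnlg (399 and 641 CPM) and Lcn2 (59.8 and 107 CPM) than the members. Their Il1b (8330 and 7117 CPM), Il1r2 (1887 and 1297 CPM) and Cxcl2 (11609 and 12978 CPM) were closer to the levels of the members. Cxcl2, Ccl3 (1366 and 1543 CPM) and Ccl4 (642 and 929 CPM) were higher in ENZ in these barcodes, the opposite of their order in the members. Barcodes over 8000 UMIs that met the other limits numbered 55 and 17.

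Markers of mature neutrophils that the limits did not use were present in the same cells. Cxcr2, the receptor for CXCL1 and CXCL2, stood at 644 and 685 CPM in neutrophils, against 8.52 and 17.9 CPM in monocytes. Monocytes were taken from the same libraries by Ly6c2 with Ccr2, F13a1 or Chil3, with at most 1 UMI of Retnlg, G0s2 and Csf3r and without C1q (184 control and 331 ENZ barcodes). Hdc, the histidine decarboxylase that makes histamine, stood at 1718 and 1455 CPM against 28.0 and 28.2 CPM. Il1r2, the decoy receptor for interleukin 1, stood at 1971 and 1526 CPM against 253 and 281 CPM. Ly6g, the surface antigen used to stain mouse neutrophils, was low in the 3' libraries (52.2 and 73.3 CPM, in 51 and 27 cells) and was at 0 in the monocytes of both libraries. Cd177, a surface glycoprotein of neutrophils, was found in 26 and 14 cells and did not set them apart from monocytes. Its ratio of neutrophils over monocytes was 0.922 in the control and 1.04 in ENZ. For Mmp8, the neutrophil collagenase, that ratio was 1.07 and 2.07. Of 12 neutrophil markers compared with monocytes, 11 were at least 2-fold higher in both libraries. This count includes S100a8, S100a9, Retnlg, G0s2 and Csf3r, which the limits used. The monocytes were also chosen with few UMIs of Retnlg, G0s2 and Csf3r, so the count is in part set by the choice of cells. At least 2-fold higher levels than in monocytes in both libraries were seen for 501 of 2855 genes (17.5%), and at least 2-fold lower levels for 675 (23.6%).

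By the ratio of their level in neutrophils to that in all other barcodes, taken in the library where it was lower, the 15 leading genes were S100a9, S100a8, Retnlg, Lcn2, Rdh12, Wfdc21, Stfa2l1, G0s2, Asprv1, Cxcr2, Il1f9, Lrg1, Ankrd22, Cstdc4 and Il15. Rdh12, a retinol dehydrogenase, stood at 219 and 283 CPM against 9.48 and 5.98 CPM in the other barcodes. Asprv1, an aspartic protease, stood at 584 and 636 CPM against 32.6 and 11.1 CPM. Il1f9, which encodes interleukin 36 gamma, stood at 350 and 322 CPM against 20.4 and 8.95 CPM. S100a9 was also more abundant in the control in the other barcodes (1443 and 347 CPM) and in RNA outside cells (715 and 310 CPM), whereas Lcn2 was not (28.5 and 36.0 CPM, and 7.44 and 26.4 CPM).

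**Figure D1:**
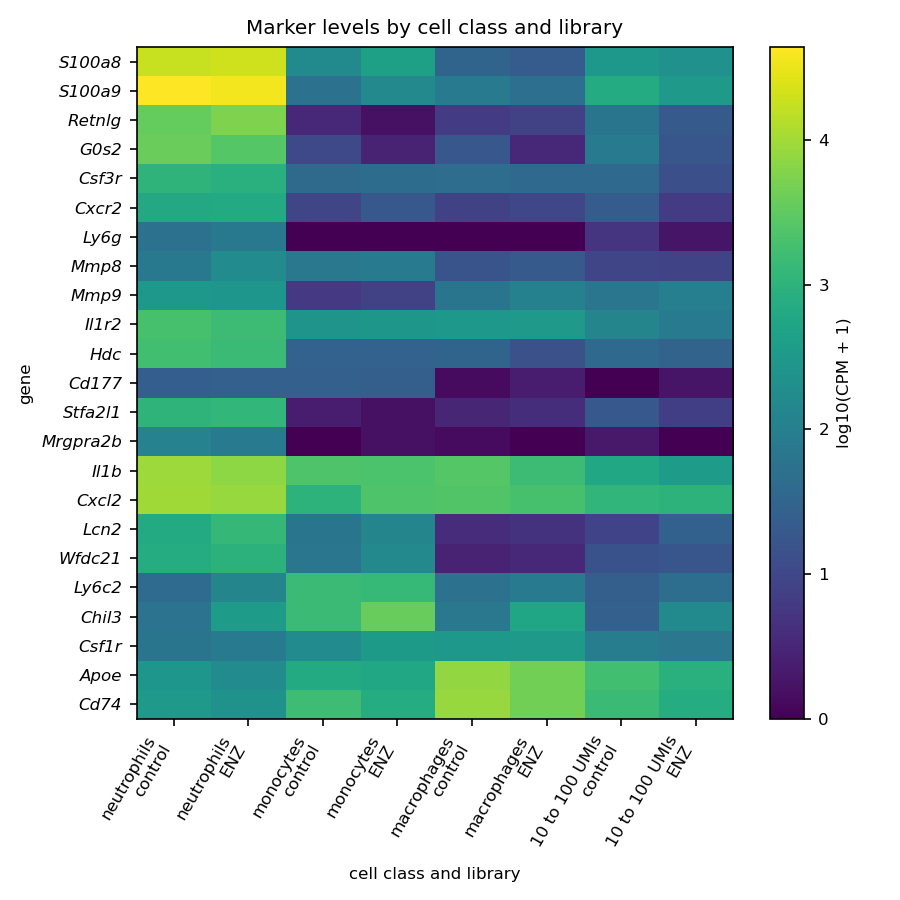
Level of 23 genes as log10(CPM + 1) in neutrophils, monocytes, macrophages and barcodes of 10 to 100 UMIs, each in the control and ENZ library. The neutrophil markers in the upper rows are brightest in the neutrophil columns (S100a9 43921 and 36975 CPM), while Apoe and Cd74 are brightest in macrophages.

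Markers of other lineages were low but not absent, although the label of both samples gives prostate cancer cell as the cell type. Epithelial Krt8, Krt18 and Krt19 with Epcam and Cldn4 summed to 54.7 CPM in control and 63.2 CPM in ENZ neutrophils, led by Krt8 (29.3 and 37.4 CPM), against 603 and 713 CPM in RNA outside cells. Epcam and Cldn4 were at 0 in both libraries. The 5 B cell markers summed to 0 and 4.31 CPM, the 7 T cell markers to 11.5 and 4.31 CPM, and the 7 eosinophil markers to 5.73 and 1.44 CPM. Fibroblast markers summed to 118 and 84.8 CPM, led by Col3a1 (57.3 and 43.1 CPM). Macrophage markers, C1q genes apart, were led by Apoe (269 and 174 CPM), and dendritic cell markers by Cd74 (305 and 231 CPM). Monocyte markers moved with the condition: the 7 genes summed to 246 CPM in the control and 738 CPM in ENZ, with Csf1r leading in the control (62.4 CPM) and Chil3 in ENZ (351 CPM). NK cell markers summed to 24.2 and 147 CPM, led by Gzma (11.5 and 106 CPM), and endothelial markers to 82.1 and 43.1 CPM, nearly all Pecam1 (74.5 and 40.2 CPM). Mast cell and basophil markers summed to 17.8 and 1.44 CPM, and erythroid and platelet markers to 42.0 and 10.1 CPM. At least 2 UMIs of monocyte markers were found in 7.84% of control and 14.9% of ENZ neutrophils, and at least 2 UMIs of dendritic cell markers in 23.1% and 5.96%. If all Krt8 and Krt18 UMIs of the neutrophils came from RNA outside cells, such RNA would make up 8.61% of their UMIs in the control and 9.59% in ENZ. The part of other cells or free RNA in the ratios below was not tested.

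The neutrophils of both libraries had the profile of cells past the marrow stages, which is in part set by the choice of cells. The limits asked for transcripts of mature granulocytes and left out barcodes above the upper UMI limit. Whether these limits left out cells of earlier stages was not tested. Of the primary granule genes, made in promyelocytes, Elane and Ctsg were at 0 in all members, which with a floor of 3 UMIs allows up to 1.91 CPM in the control and 4.31 CPM in ENZ. Mpo stood at 3.18 and 1.44 CPM, and the whole list of 6 genes at 24.8 and 12.9 CPM. Ngp, Camp and Ltf, granule genes of myelocytes and metamyelocytes, were carried by few cells. At least 3 UMIs of these 3 genes were found in 4 of 714 control and 4 of 302 ENZ neutrophils, which held 90.9% and 87.4% of all their UMIs and up to 170 UMIs in one cell. The log2 ratio of Ngp, -0.20, was 2.46 with no upper UMI limit and 1.68 with no limit on C1q. The proliferation genes Mki67 and Top2a stood at 16.6 and 28.6 CPM in the control and at 11.5 and 30.2 CPM in ENZ. At least 2 UMIs of both together occurred in 4 control neutrophils and 0 ENZ neutrophils, a count of 0 that allows a share of up to 0.993% of ENZ neutrophils, taken as 3 counts of 302. Transcription factors of mature cells were abundant, with Cebpb at 2978 and 2477 CPM, Junb at 2432 and 1949 CPM and Spi1 (PU.1) at 436 and 475 CPM, whereas Cebpe and Gfi1, factors of the marrow stages, stayed below 4 CPM. Of 7 maturation and transcription factor genes compared between ENZ and control, 0 passed 1.5-fold in either direction, against 12.7% of all genes tested, a share at which fewer than 1 of 7 would pass.

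Levels in ENZ and control neutrophils were compared for 2517 genes with a mean of at least 50 CPM. At least 1.5-fold higher in ENZ were 186 genes (7.39%), and at least 1.5-fold lower 134 genes (5.32%), together 12.7%, and 1368 of the 2517 had a ratio above 1, with a median log2 ratio of 0.04 over all genes. These counts have no replicate check, and the counts of the lists below are to be read against these shares. Ratios carry an exact conditional binomial interval. In both libraries the same very abundant transcripts led the profile, and most genes lay near the diagonal.

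**Figure D2:**
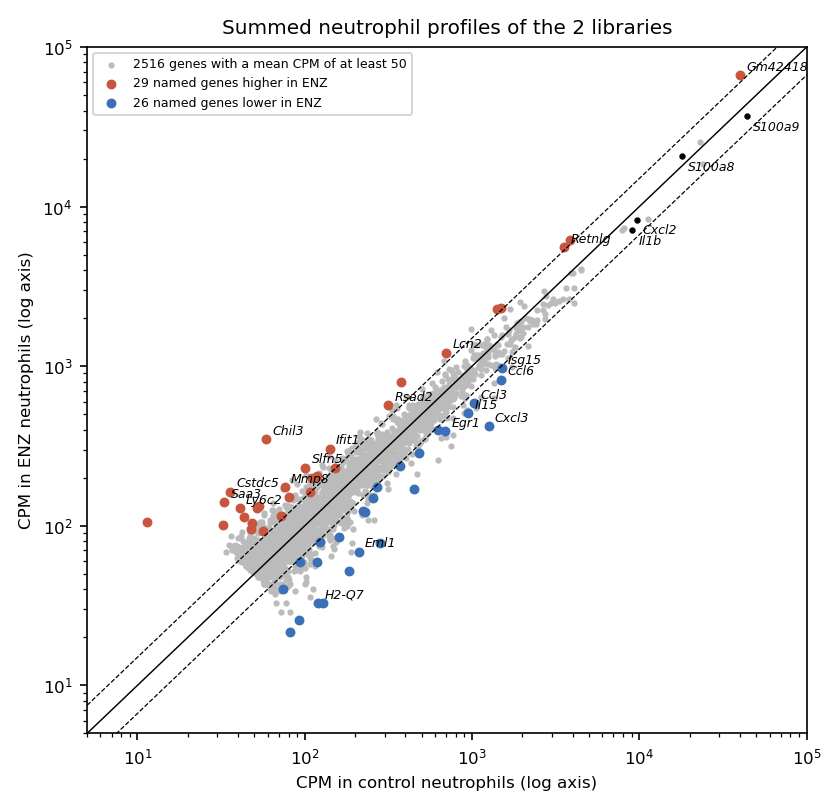
CPM of each gene summed over neutrophils, control on the horizontal and ENZ on the vertical log axis, for 2516 genes with UMIs in both libraries and a mean of at least 50 CPM. Solid line, equal levels; dashed lines, 1.5-fold; red and blue points, the 29 and 26 named genes at least 1.5-fold higher or lower in ENZ. Gzma (11.5 and 106 CPM) and Chil3 (58.6 and 351 CPM) lie farthest above and Cxcl3 (1255 and 424 CPM) well below the dashed lines.

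Secreted signals differed in both directions, while over all genes 7.39% were higher and 5.32% lower by 1.5-fold. Of 16 cytokine and chemokine genes 14 had enough UMIs, 4 of them at least 1.5-fold lower in ENZ (Cxcl3, Ccl6, Ccl3 and Il1rn) and 2 at least 1.5-fold higher (Tnf and Cxcl10), with a median log2 ratio of -0.28 against 0.04 over all genes. Cxcl3, a ligand of CXCR2, stood at 1255 CPM in the control and 424 CPM in ENZ, a ratio of 0.338 (0.298 to 0.382), and was detected in 236 of 714 and 57 of 302 cells. Ccl3, which attracts cells through CCR1, stood at 1029 and 585 CPM (ratio 0.568). Its neighbour in function, Ccl4, stood at 911 and 629 CPM (ratio 0.691), inside the 1.5-fold limit. Ccl6, a chemokine made by myeloid cells, stood at 1495 and 823 CPM (0.550), and Il1rn, the interleukin 1 receptor antagonist, at 627 and 399 CPM (0.637). Ccl3 and Il1rn lay inside 1.5-fold with no upper UMI limit (log2 ratio -0.57 and -0.44) and with at least 10 S100 UMIs (-0.36 and -0.56), and Il1rn also after thinning (-0.49) and with no limit on C1q (-0.54). The 2 most abundant signals differed less. Cxcl2, another CXCR2 ligand, stood at 9625 and 8296 CPM (0.862), and Il1b, the main secreted interleukin 1, at 9069 and 7121 CPM (0.785). Tnf was scarce at 72.6 and 115 CPM (1.58) and no longer passed 1.5-fold without its top cell, and Cxcl10 stood at 56.7 and 93.4 CPM (1.65), with 1 cell holding 29.2% of its control UMIs. Il15, a cytokine for NK and CD8 T cells and one of the 15 leading genes, stood at 947 and 507 CPM (0.535).

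After every cell was thinned to 500 UMIs, Cxcl3 was found in 22.4% of control and 10.6% of ENZ neutrophils, against 0.949% and 0.654% of macrophages thinned in the same way. The shares without thinning were 33.1% and 18.9%. Ccl3 was found in 20.4% and 16.2% of thinned neutrophils (intervals 17.5 to 23.6 and 12.3 to 20.9, which overlap). It was found in 6.07% and 4.58% of thinned macrophages and in 0.287% and 0.731% of thinned T cells. Il15 was found in 32.4% and 20.5% of thinned neutrophils, in 0.759% and 0.980% of thinned macrophages, and in 0 of 349 and 0 of 547 T cells. Il1b was found in 91.5% and 85.4% of thinned neutrophils, in 48.2% and 37.6% of thinned macrophages and in 2.87% and 1.83% of thinned T cells.

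Genes of the interferon response differed in both directions. This response is driven by factors that bind the interferon-stimulated response element (ISRE) near the start of their target genes. Of 20 genes 16 had enough UMIs, 5 at least 1.5-fold higher in ENZ (among them Slfn5, Ifit1, Usp18 and Rsad2) and 2 at least 1.5-fold lower (Slfn1 and Isg15). Over all genes 7.39% were higher and 5.32% lower by 1.5-fold. The median log2 ratio was 0.39 against 0.04 over all genes, and was 0.06 with at least 50 S100 UMIs. Ifit1, which binds foreign RNA caps, stood at 141 and 305 CPM (ratio 2.15, 1.78 to 2.61), in 82 and 57 cells. Rsad2 (viperin) stood at 316 and 570 CPM (1.80), and Slfn5, a nuclear Schlafen family protein, at 101 and 231 CPM (2.30). Usp18, which removes ISG15 from proteins and damps the pathway, stood at 47.7 and 94.8 CPM (1.99). Isg15, the ubiquitin-like modifier, went the other way at 1500 and 970 CPM (0.646, 0.592 to 0.704), as did Slfn1 at 370 and 238 CPM (0.645). Both lay inside 1.5-fold after thinning, with no upper UMI limit and with no limit on C1q, and Slfn1 also by the mean of CPM over cells. Slfn4 (1113 and 1118 CPM) and Ifitm3 (1493 and 1518 CPM) were nearly equal. Reads of Ifit3 and its near copy Ifit3b may be divided between them, so their levels are uncertain (85.3 and 101 CPM, and 32.5 and 35.9 CPM).

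The sequences before the start sites of these genes are shown because genes with the same element differed in opposite directions. The ISRE was searched as GAAA, any 2 bases and GAAA again, on both strands, with overlapping matches kept, in RefSeq promoters (GRCm38.p6) from 250 bases before to 50 after the start. It was present in 3.44% of 32851 promoters, in 3.99% of the 27025 genes they belong to, and in 8 of the 16 interferon genes that had a promoter in the table. Capitals mark the matches, which read as TTTC, any 2 bases and TTTC where the match lies on the other strand. The windows are 100 bases each, 5′ to 3′ on the strand of the gene, from chr19:34640759-34640858 (Ifit1, plus strand), chr12:26456518-26456617 (Rsad2, minus strand), chr11:82951902-82952001 (Slfn5, plus strand) and chr4:156200830-156200929 (Isg15, minus strand).
Ifit1: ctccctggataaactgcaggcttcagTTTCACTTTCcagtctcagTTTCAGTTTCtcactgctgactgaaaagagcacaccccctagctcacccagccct
Rsad2: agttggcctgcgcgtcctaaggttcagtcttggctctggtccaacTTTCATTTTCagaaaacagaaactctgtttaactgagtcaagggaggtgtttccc
Slfn5: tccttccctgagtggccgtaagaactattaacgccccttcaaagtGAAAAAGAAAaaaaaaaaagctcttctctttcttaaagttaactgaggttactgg
Isg15: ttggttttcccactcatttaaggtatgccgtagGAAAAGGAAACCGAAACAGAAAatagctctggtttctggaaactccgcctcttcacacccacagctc
Ifit1 had 2 matches, Rsad2 and Slfn5 1 each, and Isg15 3 overlapping ones. Ifit1, Rsad2 and Slfn5 were 2.15-, 1.80- and 2.30-fold higher in ENZ neutrophils, while Isg15 was lower at a ratio of 0.646.

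The promoters of the CXCR2 ligands Cxcl2 and Cxcl3 are shown because both genes were lower in ENZ, to different degrees. The log2 ratio of Cxcl2, -0.21, was near 0 with no upper UMI limit (-0.010) and with no limit on C1q (-0.018), whereas that of Cxcl3 lay between -1.68 and -1.23 under the alternatives. Both lie on mouse chromosome 5 and held the consensus of NF-kB, the factor family of inflammatory gene induction. The consensus is present in 4.51% of promoters, in 5.14% of genes, and in 6 of the 13 cytokine and chemokine genes with a promoter in the table. Cxcl1, another CXCR2 ligand with the consensus, went the other way. Its log2 ratio was 0.46, and lay between 0.10 (without its top cell) and 0.99 (after thinning) under the alternatives. Cxcl10, which also had the consensus, was higher in ENZ too (log2 ratio 0.72). Ccl3 (ratio 0.568) and Il1b (0.785) had no match in the promoter window. The matches lay within 100 bases of the start, in capitals in the windows chr5:90903758-90903857 (Cxcl2) and chr5:90785984-90786083 (Cxcl3), both on the plus strand.
Cxcl2: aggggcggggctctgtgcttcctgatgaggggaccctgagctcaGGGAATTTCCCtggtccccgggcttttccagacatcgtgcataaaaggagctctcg
Cxcl3: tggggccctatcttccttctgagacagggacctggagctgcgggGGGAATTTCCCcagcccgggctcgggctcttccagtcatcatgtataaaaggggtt
Both windows had 2 overlapping matches with the same capital letters, while the ENZ over control ratio in neutrophils was 0.862 for Cxcl2 and 0.338 for Cxcl3. None of 12 genes of the NF-kB response list passed 1.5-fold in either direction, against 12.7% of all genes tested. Under alternatives Tnfaip3 passed it after thinning (log2 ratio 0.61), and Sod2 with at least 50 S100 UMIs (0.64). Nfkbia, the inhibitor that NF-kB induces, stood at 1849 and 1868 CPM, Nfkb1 at 1194 and 1337 CPM and Tnfaip3, the A20 feedback enzyme, at 688 and 892 CPM. The median log2 ratio of the list was 0.07, and was -0.03 after thinning and 0.21 with no limit on C1q.

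**Figure D3:**
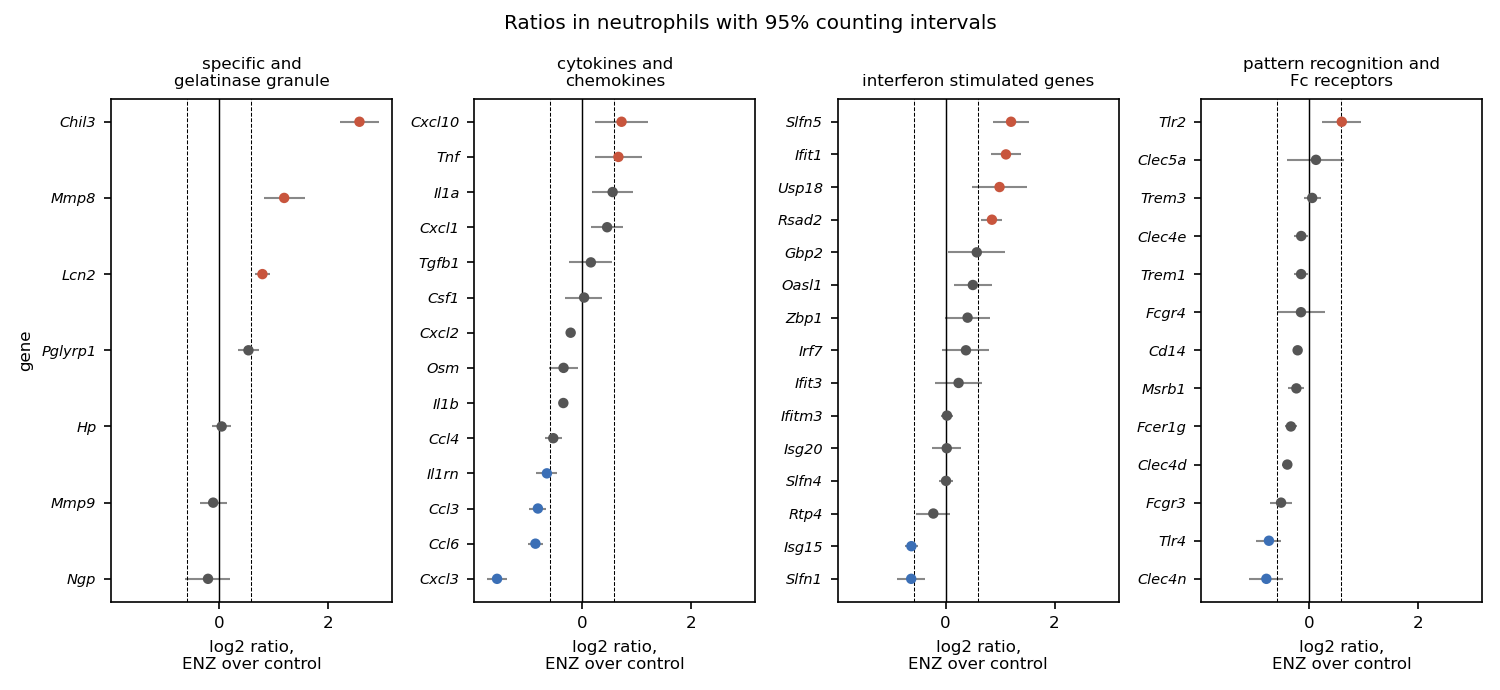
Log2 ratio of ENZ over control neutrophils for reported genes of 4 lists with a mean of at least 50 CPM. Points, ratios; bars, 95% intervals for counting error; dashed lines, 1.5-fold; red and blue, past it. Among granule genes Chil3 (5.98-fold) lies farthest right, cytokines spread to both sides with Cxcl3 lowest, and Isg15 and Slfn1 lie opposite Slfn5 and Ifit1.

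Of 11 specific and gelatinase granule genes 7 had enough UMIs, and 3 were at least 1.5-fold higher in ENZ (7.39% over all genes) and 0 lower (5.32%). Lcn2, the siderophore-binding protein lipocalin 2, stood at 700 and 1217 CPM (ratio 1.74, 1.59 to 1.90) in 307 and 175 cells, with 17.0% of ENZ UMIs in 1 cell. Mmp8, the neutrophil collagenase, stood at 75.8 and 174 CPM (2.29). Chil3, a chitinase-like protein that monocytes and macrophages also make, stood at 58.6 and 351 CPM (5.98, 4.69 to 7.69) in 17 and 29 cells. Chil3, which also served to choose the monocytes, was higher in ENZ in monocytes (1434 and 3714 CPM), macrophages (71.5 and 544 CPM) and RNA outside cells (25.5 and 157 CPM). Pglyrp1, a peptidoglycan-binding granule protein, stood at 335 and 488 CPM (1.46). Hp (haptoglobin) at 537 and 556 CPM and Mmp9 (gelatinase B) at 295 and 274 CPM were nearly equal. The median log2 ratio of the 7 genes was 0.54 against 0.04 over all genes, and was 0.29 after thinning to 500 UMIs and 1.18 with no upper UMI limit.

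Thinned to 500 UMIs, Lcn2 was found in 19.3% of control and 30.5% of ENZ neutrophils (43.0% and 57.9% without thinning), and in 0.380% and 0.327% of macrophages.

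Of 14 receptors and adhesion genes only Icam1 passed 1.5-fold (151 and 231 CPM, ratio 1.53), with a median log2 ratio of 0.09. Among all genes tested 7.39% were higher and 5.32% lower by 1.5-fold. Icam1 lay inside 1.5-fold under median-of-ratios scaling (log2 ratio 0.57) and with no limit on C1q (0.51). CXCR2 is described above, and the chemokine receptor Ccr1 stood at 879 and 743 CPM, the platelet-activating factor receptor Ptafr at 922 and 863 CPM, and the integrin subunit Itgam (CD11b) at 616 and 714 CPM. Cd44, the hyaluronan receptor, stood at 2757 and 2741 CPM, a ratio of 0.994 (0.942 to 1.05). Of 6 NADPH oxidase genes only Ncf1, the p47 subunit, passed (111 and 198 CPM, 1.79), with a median log2 ratio of 0.15. All 6 had ratios above 1, against 1368 of 2517 over all genes, but not under every alternative. Cybb, the membrane subunit gp91, was scarce at 50.9 and 56.0 CPM. Its log2 ratio was -0.30 with no limit on C1q, and past 1.5-fold after thinning (1.24) and with no upper UMI limit (0.68). Cyba was at -0.02 with no limit on C1q. Ncf4 was at -0.10 by the mean of CPM over cells and at -0.05 after thinning.

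Of 13 sensing receptors with enough UMIs, 2 were at least 1.5-fold lower (5.32% over all genes) and 1 higher (7.39%) in ENZ, with a median log2 ratio of -0.21. Tlr4, the receptor for lipopolysaccharide, stood at 479 and 287 CPM (0.600, 0.511 to 0.702) and the C-type lectin Clec4n (dectin 2) at 257 and 149 CPM (0.581). Tlr2, the receptor for lipoproteins, differed in the opposite direction at 107 and 162 CPM (1.52). Tlr2 lay inside 1.5-fold after thinning (log2 ratio 0.28), under median-of-ratios scaling (0.56) and without its top cell (0.57), and Tlr4 with no limit on C1q (-0.58). The abundant sensors Cd14 (3039 and 2629 CPM), Clec4d (2411 and 1829 CPM), Clec4e (Mincle, 1117 and 1011 CPM) and Trem1 (1093 and 988 CPM) stayed inside 1.5-fold, and the Fc receptor gene Fcgr3 stood at 527 and 369 CPM.

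Of 15 genes linked to tumor and suppressive neutrophils, 9 had enough UMIs, 1 was lower and 0 were higher by 1.5-fold, and all 9 had ratios below 1. Over all genes 5.32% were lower and 7.39% higher by 1.5-fold. Xbp1, the factor of the unfolded protein response, was the lower one at 224 and 124 CPM (0.551). Cd274, which encodes the checkpoint ligand PD-L1, stood at 575 and 402 CPM (0.700, 0.610 to 0.801). It was found in 19.9% and 13.9% of thinned neutrophils, against 2.85% and 7.84% of macrophages and 5.16% and 4.02% of T cells. Ptgs2 (cyclooxygenase 2) stood at 1371 and 980 CPM (0.715). Nos2, the inducible nitric oxide synthase, lay under the limit for comparison (26.1 and 54.6 CPM). Siglecf, a marker of one tumor neutrophil state, stood at 4.46 and 11.5 CPM, in 7 and 8 cells.

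Of 7 survival and apoptosis genes compared, 2 were at least 1.5-fold lower, Bcl2a1a (94.2 and 58.9 CPM) and Bcl2a1d (159 and 84.8 CPM), copies of one prosurvival gene whose reads may be divided with Bcl2a1b (462 and 316 CPM), so each is uncertain. The counts of the lists in this paragraph stand against 5.32% of all genes lower and 7.39% higher by 1.5-fold. Bcl2a1a lay inside 1.5-fold without UMIs of other lineages (log2 ratio -0.58) and by the mean of CPM over cells (-0.51). Mcl1, the protein on which neutrophil survival depends most, stood at 2030 and 1606 CPM (0.791), and proapoptotic Bcl2l11 (BIM) at 556 and 667 CPM (1.20). Of 17 glycolysis and hypoxia genes, Egln3, a hypoxia-induced prolyl hydroxylase, was lower (230 and 122 CPM, 0.531) and Pfkfb3, an activator of glycolysis, higher (119 and 204 CPM, 1.71). Of these 17 genes 3 had a ratio above 1, against 1368 of 2517 over all genes. The glucose transporter gene Slc2a3 stood at 1136 and 879 CPM against 7.30 and 2.56 CPM in monocytes, and Hilpda, a hypoxia-induced lipid droplet protein, at 644 and 464 CPM. Of 12 immediate early and heat shock genes, Egr1 (691 and 392 CPM, 0.568) and Dnajb1 (123 and 79.0 CPM, 0.643) were lower and 0 were higher. Both lay inside 1.5-fold after thinning, and Dnajb1 also with at least 50 or at least 10 S100 UMIs. Fos stood at 667 and 493 CPM, and Dusp1, a phosphatase that ends kinase signals, at 1388 and 1184 CPM. The near copies Hspa1a (2684 and 2968 CPM) and Hspa1b (1586 and 1763 CPM), whose reads may be divided, were lower than in monocytes, where Hspa1a stood at 11664 CPM in the control and 9448 CPM in ENZ, and Hspa1b at 5520 and 4833 CPM.

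Of 8 MHC genes, H2-Q7, a nonclassical class I gene with close relatives, stood at 120 and 33.0 CPM (0.275, 0.170 to 0.424) and H2-Eb1, a class II chain, at 118 and 58.9 CPM (0.500). The log2 ratio of H2-Eb1 was lower still under some alternatives, at -2.31 with no limit on C1q, -2.25 after thinning and -2.03 with no upper UMI limit, and that of H2-Q7, -1.86, was -3.89 after thinning. H2-Eb1 was also lower in ENZ in monocytes (364 and 96.6 CPM), in macrophages (3032 and 1600 CPM) and in RNA outside cells (539 and 213 CPM). The main class I genes H2-D1 (1465 and 1197 CPM) and B2m (2267 and 1948 CPM) lay inside 1.5-fold.

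Of 8 genes listed as ribosomal RNA-like or nuclear RNA, 4 were at least 1.5-fold higher in ENZ neutrophils (7.39% over all genes), and 0 were lower (5.32%). The list includes the protein-coding genes Lars2, Cmss1, Gphn and Camk1d. Whether the molecules counted carried ribosomal RNA-like sequence or lay in the nucleus was not measured. Gm42418 stood at 40169 and 67037 CPM in neutrophils (1.67), 33031 and 81756 CPM in monocytes and 98844 and 132680 CPM in RNA outside cells. Lars2, Cmss1 and Gphn had ratios of 1.63, 1.59 and 1.54 in neutrophils (Gphn inside 1.5-fold with no limit on C1q and by the mean of CPM over cells) and of 2.22, 1.99 and 2.28 in monocytes. In RNA outside cells Lars2 was higher in ENZ (2714 and 3619 CPM), and Cmss1 (10546 and 10169 CPM) and Gphn (5254 and 3922 CPM) were not. Camk1d, the kinase gene the study centred on, stood at 1695 and 2265 CPM in neutrophils (1.34, 1.26 to 1.42), at 1331 and 3038 CPM in monocytes, and at 6391 and 6652 CPM in RNA outside cells. The log2 ratio of Camk1d in neutrophils, 0.42, was 0.64 with no upper UMI limit, past 1.5-fold. Of the other genes the study named, Creb1 (129 and 154 CPM), Nr4a1 (171 and 194 CPM) and Tgfb1 (107 and 119 CPM) stayed inside 1.5-fold.

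The 10 highest ratios, ranked by the lower bound of the interval, were those of Gzma, Chil3, Cstdc5, Saa3, Ly6c2, Plcb1, Gm19951, Sla, Lrch1 and Atrn. Gzma, a cytotoxic granule protease of NK and T cells, stood at 11.5 and 106 CPM, with 78.4% of ENZ UMIs in 1 cell, and its log2 ratio of 3.21 turned to -0.61 with at least 50 S100 UMIs. Saa3, an acute phase protein, stood at 33.1 and 141 CPM (4.25) in neutrophils, at 58.4 and 577 CPM in monocytes and at 17.0 and 131 CPM in RNA outside cells. Ly6c2, the monocyte antigen Ly6C, stood at 40.7 and 129 CPM (3.17). Cstdc5, a stefin-like gene with near copies, stood at 35.6 and 164 CPM (4.59) and was at 0 in the monocytes of both libraries. Sla, an adaptor that damps receptor signals, stood at 43.3 and 113 CPM (2.62) in 61 and 58 cells, and Atrn, which encodes attractin, at 51.6 and 129 CPM (2.51) in 56 and 45 cells. Lrch1 stood at 53.5 and 134 CPM (2.50), Plcb1, a phospholipase C, at 32.5 and 101 CPM (3.10) and Gm19951 at 374 and 794 CPM (2.12). The log2 ratio of Plcb1, 1.63, was 0.82 with no upper UMI limit and 0.84 with no limit on C1q. That of Ly6c2, 1.67, was 0.91 with no upper UMI limit. That of Cstdc5, 2.20, was 1.53 with no limit on C1q, and that of Saa3, 2.09, was 2.91 without its top cell.

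The 10 lowest were Mcpt1, Gm11290, Cxcl3, Gm12840, Ccdc162, H2-Q7, Eml1, Fmo5, Muc3 and E230032D23Rik. Mcpt1, a mast cell protease, came almost wholly from 1 control cell, which held 99.2% of its UMIs. Eml1, a microtubule-associated protein, stood at 210 and 69.0 CPM (0.328) in 134 and 27 cells, against 4.87 and 3.84 CPM in monocytes. The log2 ratio of Eml1, -1.61, was -0.63 after thinning. The noncoding gene E230032D23Rik stood at 451 and 170 CPM (0.376) in 329 and 63 cells, against 26.8 and 23.7 CPM in monocytes. Gm12840 stood at 129 and 33.0 CPM (0.257), Fmo5, a flavin monooxygenase, at 82.1 and 21.5 CPM (0.262), and Muc3 at 92.9 and 25.9 CPM (0.278), all 3 below 10 CPM in monocytes. The log2 ratio of Gm12840, -1.96, was -1.28 after thinning. Gm11290 (281 and 77.6 CPM) and Ccdc162 (185 and 51.7 CPM) were also lower in ENZ monocytes (611 and 335 CPM, and 422 and 271 CPM). Their log2 ratios in neutrophils, -1.86 and -1.84, were -0.75 and -1.16 with no upper UMI limit. With RNA outside cells subtracted they were -2.51 and -2.79.

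Chemokine transcripts were not spread evenly over the neutrophils. After thinning, a UMI of Ccl3 or Ccl4 was found in 234 of 714 control and 85 of 302 ENZ members, with median depths of 1984 and 2275 UMIs against 2019 and 2066 in the rest. Ccl4 was found in 37.0% of control cells with Ccl3 (29.2 to 45.4) and in 15.5% of those without (12.6 to 18.7), and in 30.6% (18.3 to 45.4) and 14.2% (10.2 to 19.2) in ENZ, where the intervals overlap. Ccl3 was found in 37.5% of control cells with Cxcl3 and 15.5% of those without, and in 34.4% (18.6 to 53.2) and 14.1% (10.2 to 18.8) in ENZ, where the intervals overlap too. In both libraries members with Ccl3 or Ccl4 had more Cxcl3 (2507 against 670 CPM in the control, 836 against 249 CPM in ENZ), so Cxcl3 was lower in ENZ in the members with and in those without. They also had more Hilpda (1181 against 392 CPM, and 869 against 292 CPM), Ccrl2, a receptor that holds chemerin at the cell surface (997 against 428 CPM, and 1150 against 395 CPM), Cxcl2 (15242 against 6998 CPM, and 14190 against 5801 CPM) and Cd274 (839 against 451 CPM, and 618 against 311 CPM). Some genes went the other way, with Mmp9 at 212 against 334 CPM in the control and 155 against 325 CPM in ENZ, Selplg, the selectin ligand PSGL-1, at 148 against 228 CPM and 130 against 251 CPM, and Hp at 432 against 587 CPM and 377 against 632 CPM. Rsad2 was higher in the members with Ccl3 or Ccl4, by 1.64-fold in the control (1.37 to 1.97) and 3.06-fold in ENZ (2.50 to 3.75), and Ifit1 by 1.11-fold (0.832 to 1.48) and 3.20-fold (2.42 to 4.25). In ENZ the other interferon genes named here had smaller ratios than these, while in the control their ratios lay on both sides of that of Ifit1. In the control and ENZ, Isg15 stood at a ratio of 1.20 and 1.65, Isg20 at 1.14 and 1.94, Slfn1 at 1.48 and 1.37, Slfn4 at 1.12 and 1.19, and Ifitm3 at 0.892 and 1.18. Cells are not replicates, so these are descriptions of each library.

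**Figure D4:**
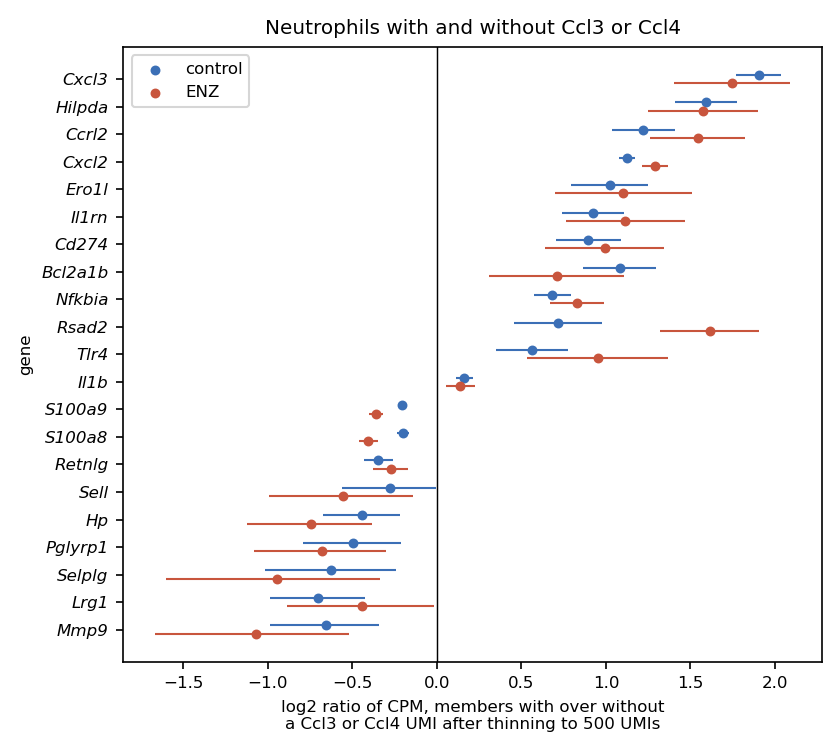
Log2 ratio of CPM between neutrophils with and without a Ccl3 or Ccl4 UMI after thinning, by gene, in the control (blue, 234 and 480 cells) and ENZ library (red, 85 and 217 cells). Points, ratios; bars, 95% intervals for counting error. Cxcl3, Hilpda and Ccrl2 lie to the right and Mmp9 and Selplg to the left in both libraries, and Rsad2 lies farther right in ENZ.

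Other gene pairs met in the same cells too. Wfdc21, a secreted whey acidic protein domain gene, was found in 51.4% of thinned control neutrophils with Lcn2 and 22.2% of those without, and in 47.8% and 20.5% in ENZ. Isg15 was found in 68.2% of control neutrophils with Rsad2 and 39.7% of those without, and in 59.1% and 30.6% in ENZ. Between the libraries the intervals overlapped in cells with Rsad2 (55.6 to 79.1 and 43.3 to 73.7) and in cells without (35.9 to 43.5 and 25.1 to 36.6). Ccl3 was found in 20.3% of control neutrophils with Lcn2 and 20.5% of those without, and in 12 of 92 and 37 of 210 in ENZ, with intervals that overlap in each library. With Retnlg, a gene the limits used, Ccl3 was less frequent. It was found in 15.4% of control neutrophils with Retnlg (12.0 to 19.3) and 26.8% of those without (22.0 to 32.05). In ENZ the shares were 13.2% (8.75 to 18.9) and 21.2% (14.1 to 29.9), where the intervals overlap.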

How the data were processed

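The authors deposited whole-number counts, UMIs per gene and barcode, for every barcode of both libraries (2438568 in the control and 2239744 in ENZ, 170830346 and 162030149 UMIs), so cells had to be called here. The file headers name Cell Ranger 7.2.0, the submitters' processing notes Cell Ranger 2.1.1 and mm10, and the labels a 3' v2 kit. Whether intronic reads were counted is not given in the sources used here, and it would raise unspliced transcripts. Per library, UMIs were summed over neutrophils and scaled to CPM. Ratios had exact conditional binomial intervals, CPM exact Poisson ones and shares Clopper-Pearson ones at 95%. No test was run, since each condition had 1 library, and a gene was called at a ratio of 1.5 with a mean of 50 CPM or more. Levels between genes are per molecule counted at its 3' end. For shares of cells, each cell was thinned at random to 500 UMIs. No doublet caller was run. The text names from each list up to 8 genes by mean CPM and every called gene, the 10 highest and 10 lowest ratios, and the 15 genes leading over other barcodes at 200 CPM or more. A few genes that this rule selects are not reported here. Hilpda, Ccrl2 and other genes of the Ccl3 and Ccl4 comparison were chosen after their values were seen. Members, lists and alternatives were chosen with earlier results of these data known. Intervals were checked on simulated data. Python 3.11.15, numpy 2.4.6 and scipy 1.17.1 were used, with RefSeq promoters of GRCm38.p6.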

Additional observations from a re-analysis of the deposited data

Results flagged for a closer look

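For 4 genes the neutrophil level differed by at least 1.5-fold between the libraries in one direction and the monocyte level by at least 1.5-fold in the other. Cxcl3 had a ratio of ENZ over control of 0.338 in neutrophils and 1.79 in monocytes (51.1 and 91.5 CPM). Ccl3 had 0.568 and 1.91 (103 and 198 CPM in monocytes), and Il1rn 0.637 and 1.71 (123 and 210 CPM). Pecam1, an adhesion molecule of endothelium and leukocytes, had 0.540 in neutrophils (74.5 and 40.2 CPM) and 1.63 in monocytes (48.7 and 79.3 CPM). The Pecam1 log2 ratio in neutrophils, -0.89, was -0.11 after thinning, -0.52 without members carrying UMIs of other lineages and -0.47 with at least 10 S100 UMIs, all inside 1.5-fold. Ccl3 and Il1rn in neutrophils also lay inside 1.5-fold with no upper UMI limit (log2 ratio -0.57 and -0.44). The same held with at least 10 S100 UMIs (-0.36 and -0.56). In the barcodes that met the other limits with fewer than 20 S100 UMIs, Ccl3 was higher in ENZ (1366 and 1543 CPM). In macrophages the ratios of Cxcl3, Ccl3 and Il1rn were 0.680, 0.933 and 0.933. The difference between the cell classes was not tested, since each condition had 1 library.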

How the results depend on the processing

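The smaller neutrophil share in ENZ kept its order under all 8 alternative limits or denominators. The shares were 10.2% in the control and 5.74% in ENZ from 1000 UMIs, 5.67% and 2.87% (difference -2.80 percentage points) with no upper UMI limit, 6.90% and 3.81% with at least 50 S100 UMIs, and 13.5% and 7.84% (-5.68) over Ptprc barcodes. The control share was 8.14% without members carrying UMIs of other lineages. Among alternatives chosen after seeing the data, it was 11.7% (-6.22) with no limit on C1q and 9.62% with at least 10 S100 UMIs. The number of genes at least 1.5-fold higher and lower in ENZ, 186 and 134, was 392 and 278 after thinning each cell to 500 UMIs, 497 and 324 from a mean of 20 CPM, 36 and 42 from 200 CPM, and 3447 and 1914 with no filter. With S100, mitochondrial, ribosomal and rRNA-like genes left out of the total, 288 genes were higher and 152 lower of 2885 tested, in place of 2517. With median-of-ratios scaling, 163 were higher and 155 lower, so the higher genes made up 51.3% of the called genes against 58.1%.

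Of 2443 log2 ratios of 188 genes under alternatives, 233 moved past the counting interval, and 95 in 50 genes had the opposite sign. Of the named genes past 1.5-fold, 1 changed sign, Gzma, which was at -0.61 with at least 50 S100 UMIs, and 1 cell held 78.4% of its ENZ UMIs. Of the 320 called genes only the 55 named ones were followed under the alternatives, and 47 to 55 of these stayed past 1.5-fold. Retnlg, Pecam1, Il1rn, Tlr2, Isg15, Slfn1, Egr1 and Dnajb1 were inside it after thinning, Fn1, Il1rn, Ccl3, Isg15 and Slfn1 with no upper UMI limit, Apoe, Gzma and Dnajb1 with at least 50 S100 UMIs, and Pecam1 and Bcl2a1a without UMIs of other lineages. Icam1 and Tlr2 were inside it under median-of-ratios scaling, Retnlg, Bcl2a1a, Slfn1 and Gphn with the mean of CPM over cells, and Apoe with RNA outside cells subtracted. Among alternatives added after seeing the data, Icam1, Il1rn, Tlr4, Isg15, Slfn1 and Gphn were inside it with no limit on C1q, Pecam1, Il1rn, Ccl3 and Dnajb1 with at least 10 S100 UMIs, and Apoe, Tnf and Tlr2 without the top cell of each gene. The median log2 ratio of interferon genes, 0.39, was 0.06 with at least 50 S100 UMIs, and that of MHC genes, -0.35, was -1.61 with no limit on C1q. With no upper UMI limit, the median was -0.09 for cytokines and chemokines (-0.28), -0.08 for pattern recognition and Fc receptors (-0.21) and 0.27 for NADPH oxidase genes (0.15), and with no limit on C1q it was 0.20 for migration genes (0.09), the values in parentheses being those without the change. The causes were not tested. No paired analysis was possible because neither library has a numbered partner. Counting depth limits genes under 50 CPM.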
